A study of Mus musculus with 9 samples.

Results

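The matrix metalloproteinase (MMP), ADAM, ADAMTS and TIMP genes were described in C2C12 myotubes after knockdown of either splice isoform of the histone variant macroH2A1. Members were the protein-coding genes whose GENCODE M21 symbol is Mmp, Adam, Adamts, Adamtsl or Timp followed by a number. This rule, which uses no measured value, took 83 of the 52780 genes in the count table. They were 22 MMP, 4 TIMP, 33 ADAM, 19 ADAMTS and 5 ADAMTS-like genes. C2C12 is a mouse myoblast line whose cells fuse into myotubes when serum is lowered, and all samples were collected at day 4 of differentiation. The 9 samples fall into 3 groups of 3. They are the si Ctrl group and, for the knockdowns, si mH2A1.1 as well as si mH2A1.2. The knockdown samples had received siRNA against macroH2A1.1 or macroH2A1.2. The protocol gives 10 nM for every siRNA, delivered again around the change to differentiation medium. The labels call the control samples WT and name no siRNA for them, while the study names them si Ctrl and lists a scramble siRNA. All cells come from 1 line. The study describes independent biological replicates, and what separated them is not given in the sources used here. The si Ctrl samples serve as reference for either knockdown, which ties the 2 comparisons to each other.

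MMPs are zinc proteases that cleave collagens, proteoglycans and other proteins around cells, and most are made as inactive precursors. ADAMs are membrane proteases that release the outer parts of growth factors, receptors and Notch ligands, while the secreted ADAMTS enzymes cut proteoglycans or trim procollagens, and the ADAMTS-like proteins resemble them without a protease domain. TIMPs bind MMPs and several ADAM and ADAMTS enzymes and block them, and in muscle these proteases remodel the matrix around migrating and fusing myoblasts.

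Both macroH2A1 isoforms come from 1 gene, H2afy, and the counts do not separate them. H2afy was at 56.3, 62.4 and 61.0 CPM, counts scaled to library size, in the si Ctrl samples, at 38.8, 30 and 30.9 CPM with si mH2A1.1 and at 46.8, 47.2 and 43.2 CPM with si mH2A1.2. The 6 knockdown samples all lay under the 3 controls. The totals were between 36924252 and 42223108 counts per sample. At this depth 3 counts, taken as the smallest amount told from 0, were on average 0.0792 CPM in si Ctrl, 0.0724 CPM in si mH2A1.1 and 0.0805 CPM in si mH2A1.2. The 10 markers of differentiated myotubes summed to between 16070 and 27725 CPM in all samples, and each of them was detected in every group, although some differed between groups, as given with the results. The mRNA was taken from whole cultures, so fewer cells of a type and less RNA per cell cannot be told apart.

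Of the 83 members, 54 passed the filter on low counts and were tested among 19545 genes, while 29 were not tested. Those 29 stayed at or below 0.321 CPM in every sample, and 10 of them had no count at all. The tested members were 14 MMPs, 4 TIMPs, 16 ADAMs, 15 ADAMTS and 5 ADAMTS-like genes. The untested ones were mostly ADAMs of the germ line, with 16 of 21 such genes not tested. Adamts3, a procollagen-trimming enzyme, also stayed too low, with 0 to 7 counts in a sample.

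In the si Ctrl samples the inhibitors stood at the top of the order. On a scale of counts per kilobase of exon, with the same sum in every sample (length-scaled CPM), Timp2 was at 457 ± 15.2 (SD, n = 3 here and below) and Timp1 at 303 ± 59.0. The next were the ADAMs Adam9 at 164 ± 13.5, which sheds growth factor precursors, and Adam19 at 139 ± 7.38, which processes neuregulin. The gelatinase Mmp2, which degrades basement membrane collagen, followed at 102 ± 25.7, and Mmp11, Timp3 and Mmp14 at 97.5 ± 14.2, 93.6 ± 22.5 and 90.9 ± 13.4. Adamts14 at 81.4 ± 8.83 and Adamts1 at 79.2 ± 9.23 closed the first 10. The places from Mmp2 to Adamts1 were closer to each other than their spread, so their order is not fixed by these samples. The lowest tested members, among them Mmp3, Mmp10 and Adamts8, lay near the counting limit in control cells.

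**Figure D1:**
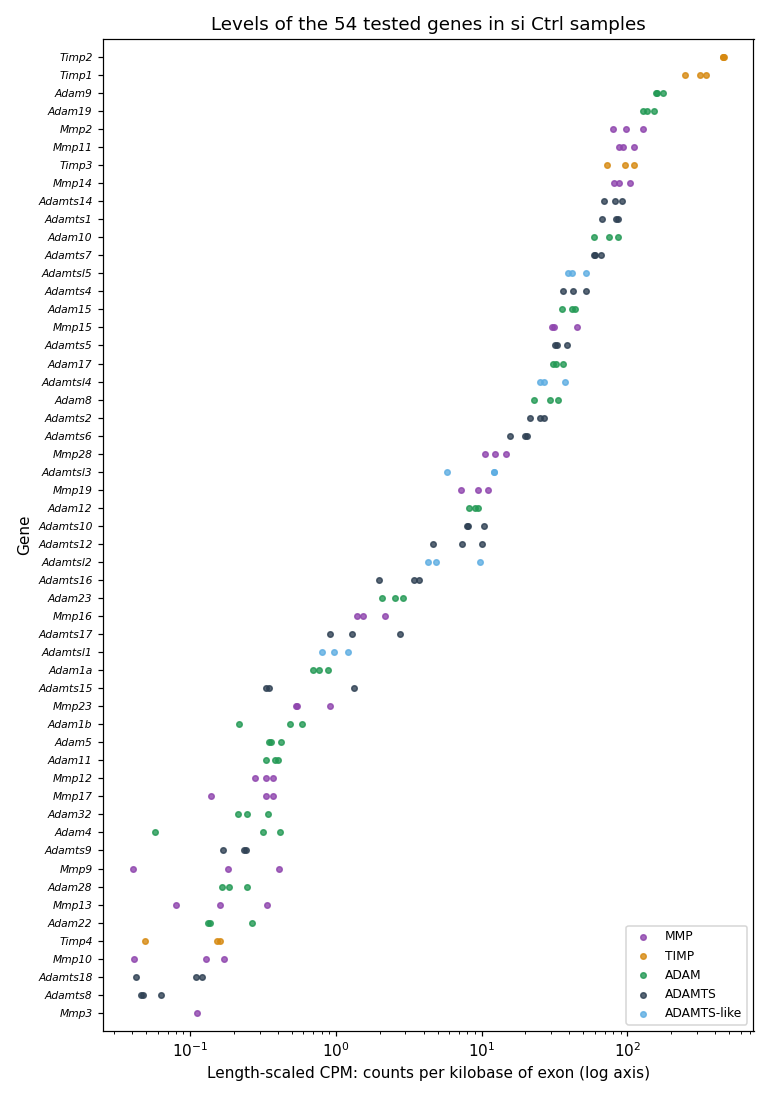
Levels of the 54 tested genes in the 3 si Ctrl samples, in length-scaled CPM on a log axis, 1 point per sample and 1 row per gene, coloured by family. Each point is the CPM of the sample, scaled so that the mean of the group equals its mean length-scaled CPM. The spread shown is therefore that of CPM. Timp2 and Timp1 are highest at 457 and 303 on average, and Mmp3 shows 1 point because 2 of its 3 samples had no count.

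The summed level of all MMP genes on the same scale was 351 ± 54.1 in si Ctrl. It came to 319.5 ± 31.1 after si mH2A1.1 and to 572 ± 32.0 after si mH2A1.2. The MMP sum with si mH2A1.2 was above every other sample, from 549 to 608 against 308 to 412 in si Ctrl. The ADAMTS sum was 366 ± 19.8, 289 ± 27.1 and 514 ± 52.2 in the same order of groups, and its ranges did not overlap between any 2 groups. The ADAM sum was 494 ± 37.2, 469 ± 84.6 and 518 ± 66.5, with overlapping ranges, and the TIMP sum was 854 ± 93.6, 799.8 ± 141 and 1065 ± 128. In the TIMP sum only si mH2A1.2, at 949.9 to 1202, lay above si Ctrl, at 747 to 919.5. These sums were not tested.

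Knockdown of macroH2A1.1 moved members in both directions. A gene was called at an adjusted p of at most 0.05 in edgeR's quasi-likelihood test across all genes. With si mH2A1.1 against si Ctrl, 6 members were called higher, Mmp3, Mmp10, Mmp12, Mmp13, Mmp15 and Adamts8, and 8 were called lower, Adamts1, Adamts5, Adamts10, Adamts12, Adamtsl3, Mmp2, Mmp11 and Mmp16. These are 11.1% and 14.8% of the tested members, beside 6.18% of all tested genes called higher and 4.93% called lower (11.1% in either direction). The median log2 fold change of the 54 tested members was -0.10. Mmp3, Mmp10, Mmp13, Adamts8 and the uncalled Mmp9 passed the filter only through their si mH2A1.1 samples, so a difference in these 5 was built into their being tested and their calls add nothing to the count. With such genes taken out, a count added after the data were seen, 2 of 49 members were called higher (4.08%, beside 5.57% of 18910 genes treated alike) and 8 lower (16.3% beside 5.09%). An exact permutation test of 1 gene has a smallest p of 0.1 with 3 samples in each group, and calls were therefore taken from the fit across all genes. Leaving out 1 sample moved the count of higher members from 6 to 3 without si Ctrl replicate 2 or without si mH2A1.1 replicate 1. It moved the count of lower members from 8 to 3 without si Ctrl replicate 2 or 3 or without si mH2A1.1 replicate 1 or 3.

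Of the 6 members called higher, 4 lie together on mouse chromosome 9. The members of the MMP cluster span chr9:7272514-7699585 (GRCm38). In chromosome order they are Mmp13, Mmp12, Mmp1b, Mmp3, Mmp10, Mmp8, Mmp27, Mmp20 and Mmp7. The collagenase gene Mmp1a was not among the members, so this list need not be the whole cluster. Only Mmp13, Mmp12, Mmp3 and Mmp10 were high enough to be tested. All 4 were called higher with si mH2A1.1, which for Mmp3, Mmp10 and Mmp13 was built into their being tested. The other 5 stayed at or below 0.173 CPM in every sample. Among them Mmp8, a neutrophil collagenase, had 7, 4 and 5 counts with si mH2A1.1 and none in the other 6 samples, which is too little to test.

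For these 4 called neighbours the promoter windows are shown, from 250 bases before to 50 after the RefSeq transcript start, 5′ to 3′ on the plus strand of GRCm38.p6. RefSeq windows were found for 52 of the 83 members. Capitals mark the AP-1 motif TGANTCA, the site of Fos and Jun dimers, and the letters TATAAA, found in many TATA boxes, both searched on either strand. They are Mmp3 at chr9:7445572-7445871, Mmp10 at chr9:7502092-7502391, Mmp12 at chr9:7347124-7347423 and Mmp13 at chr9:7272264-7272563.
Mmp3: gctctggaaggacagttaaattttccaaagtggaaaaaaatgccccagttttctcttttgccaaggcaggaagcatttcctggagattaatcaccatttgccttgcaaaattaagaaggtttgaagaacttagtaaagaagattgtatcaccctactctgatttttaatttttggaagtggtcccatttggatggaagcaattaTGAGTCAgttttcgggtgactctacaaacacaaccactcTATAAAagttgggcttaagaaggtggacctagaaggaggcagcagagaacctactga
Mmp10: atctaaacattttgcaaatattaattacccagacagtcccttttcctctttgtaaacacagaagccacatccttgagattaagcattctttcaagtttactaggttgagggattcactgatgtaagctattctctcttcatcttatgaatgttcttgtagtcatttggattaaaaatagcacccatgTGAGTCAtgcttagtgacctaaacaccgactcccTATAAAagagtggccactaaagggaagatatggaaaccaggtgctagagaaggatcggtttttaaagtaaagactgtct
Mmp12: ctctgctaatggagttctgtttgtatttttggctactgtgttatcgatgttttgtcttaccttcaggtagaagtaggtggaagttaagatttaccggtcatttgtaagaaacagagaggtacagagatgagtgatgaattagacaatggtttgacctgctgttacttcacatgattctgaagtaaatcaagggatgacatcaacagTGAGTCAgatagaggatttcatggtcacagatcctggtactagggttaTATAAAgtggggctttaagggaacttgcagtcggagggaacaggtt
Mmp13: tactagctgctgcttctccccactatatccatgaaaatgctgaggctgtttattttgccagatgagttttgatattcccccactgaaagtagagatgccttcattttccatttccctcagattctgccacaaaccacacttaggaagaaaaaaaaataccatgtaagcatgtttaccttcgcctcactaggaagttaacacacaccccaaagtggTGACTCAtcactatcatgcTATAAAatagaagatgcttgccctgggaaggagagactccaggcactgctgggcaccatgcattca

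The AP-1 motif began 46 bases before the start in Mmp3, 63 in Mmp10, 44 in Mmp12 and 35 in Mmp13. TATAAA began 7 bases before the start in Mmp3, 29 in Mmp10 and 16 in Mmp13, and 4 bases after it in Mmp12, so not all of these lie where a TATA box usually does. A second window of Mmp12, at chr9:7344147-7344446, held neither motif. TGANTCA was in 7.81% of all 32851 promoter windows and TATAAA in 13.6%. Of the 57 member windows, 21.1% held TGANTCA and 24.6% held TATAAA. The former was also in the windows of the cluster genes Mmp1b, Mmp7 and Mmp20 and of Adam20, Adam25 and Adam29, all of them untested. It was in those of Adam19 and Adam1b too, which were tested and not called. Of the 6 members called higher with si mH2A1.1, 5 had a window, and 4 of these 5 held both motifs. Among the members called higher with si mH2A1.2, 2 had a window, and it held neither motif. Of the 8 members called lower with si mH2A1.1, 4 had a window, none of those held TGANTCA and that of Adamts1 held TATAAA. The latter was also in the windows of Mmp1b, Mmp7, Mmp8, Mmp20, Mmp21, Adam6a, Adam6b, Adam29 and Adamtsl2. These matches describe letters in the windows, and binding was not measured here.

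Mmp3, or stromelysin-1, cleaves proteoglycans and activates other MMPs. It had 0, 0 and 3 counts in the si Ctrl samples, 84, 28 and 202 with si mH2A1.1 and 0, 0 and 1 with si mH2A1.2. Every si mH2A1.1 sample was far above the other 6, and replicate 2 was the lowest of the 3. This gene passed the filter only through its si mH2A1.1 samples, so a difference was built into its being tested. The summed counts per library size were 95.7 times those of si Ctrl (exact 95% interval 32.4 to 466, adjusted p = 0.00537). Such intervals come from counts summed over the 3 samples of a group and take in the counting error alone. They leave out the spread between samples, so they are too narrow for the difference between the groups. Copies of 1 molecule made by PCR cannot be recognised in these reads and are not allowed for either.

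Mmp10, or stromelysin-2, had 4, 3 and 1 counts in si Ctrl, 384, 46 and 228 with si mH2A1.1 and 2, 1 and 2 with si mH2A1.2. The ratio to si Ctrl was 75.2 (95% interval 37.9 to 175, adjusted p = 0.00355), and again replicate 2 of si mH2A1.1 was the lowest. Mmp13, a collagenase of fibrillar collagens, had 3, 6 and 13 counts in si Ctrl, 38, 17 and 57 with si mH2A1.1 and 2, 3 and 10 with si mH2A1.2. Its ratio was 4.65 (95% interval 2.93 to 7.72, adjusted p = 0.0469). Mmp12, a metalloelastase best known from macrophages, was at 0.883, 0.746 and 0.980 CPM in si Ctrl, 6.20, 1.28 and 3.11 CPM with si mH2A1.1 and 1.16, 0.887 and 0.859 CPM with si mH2A1.2. It was 4.05-fold higher than in si Ctrl (log2 fold change 2.02, standard error 0.47, adjusted p = 0.0258). For all 4 cluster genes the si mH2A1.1 samples lay above every si Ctrl and si mH2A1.2 sample. For Mmp3, Mmp10 and Mmp13 a difference was built into their being tested.

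The calls of Mmp3 and Mmp10, for which a difference was built into their being tested, were kept in all 9 fits that left out 1 sample. The adjusted p was at most 0.0294 for Mmp3 and 0.0216 for Mmp10. The call of Mmp12 was lost without any 1 of the si Ctrl samples and without si mH2A1.1 replicate 1 or 3, with adjusted p up to 0.0962. That of Mmp13 was lost without the same samples and without si mH2A1.2 replicate 2, with adjusted p up to 0.152. Exons of Mmp12 and of Mmp1b on the opposite strand share 2.17% of the Mmp12 exon length, and Mmp1b had no count in any sample.

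Adamts8, a proteoglycan-cleaving enzyme, lies further along chromosome 9, at chr9:30942562-30963838. It had 4, 3 and 3 counts in si Ctrl, 227, 79 and 130 with si mH2A1.1 and 17, 5 and 5 with si mH2A1.2. The si mH2A1.1 samples were above all others, with a ratio to si Ctrl of 39.8 (95% interval 21.5 to 83.7, adjusted p = 0.00227), and the call was kept in all 9 fits without 1 sample. Adamts8 passed the filter only through these si mH2A1.1 samples, so a difference was built into its being tested. Its neighbour Adamts15, another proteoglycan-cleaving enzyme and picked here after its values were seen, ended 20110 bases away on the opposite strand. Adamts15 was at 5.03, 1.25 and 1.31 CPM in si Ctrl, 16.9, 17.8 and 9.47 CPM with si mH2A1.1 and 8.09, 2.58 and 0.645 CPM with si mH2A1.2. The si mH2A1.1 samples were again the 3 highest, but edgeR did not call the difference (log2 fold change 2.54, standard error 0.77, adjusted p = 0.0582), while DESeq2 did (adjusted p = 0.0405).

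**Figure D2:**
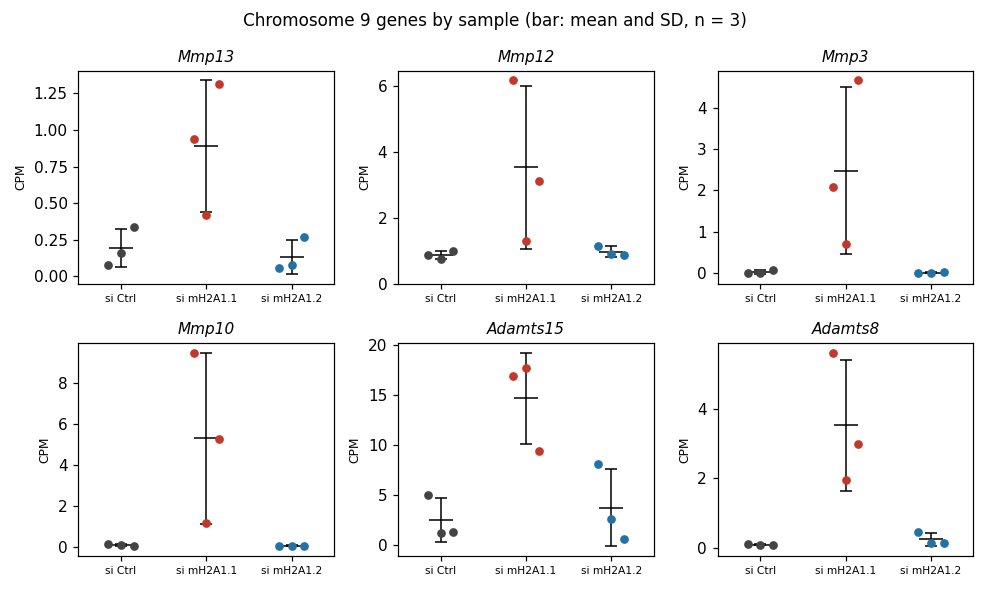
CPM of 6 genes on chromosome 9 in each sample (points) with the mean and SD of each group of 3 (bars), on linear axes. In all 6 panels the si mH2A1.1 points lie above the si Ctrl and si mH2A1.2 points, and in Mmp12, Mmp3, Mmp10 and Mmp13 replicate 2, the middle point, is the lowest of them. Mmp3, Mmp10, Mmp13 and Adamts8 passed the filter only through si mH2A1.1, so a difference was built into their being tested. Adamts15 was picked after its values were seen.

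Several markers moved with si mH2A1.1 as well. The 6 interferon response markers were all called higher, and their sum was 12.3 to 15.1 CPM in si Ctrl, 77.9 to 335 CPM with si mH2A1.1 and 13.1 to 19.7 CPM with si mH2A1.2. The 5 markers of proliferating cells summed to 240.4 to 391.6 CPM, 344 to 723 CPM and 192 to 286 CPM in the same order, and 0 of the 5 was called against si Ctrl (4 at an unadjusted p under 0.05, 2 by DESeq2), while all 5 were called higher than with si mH2A1.2. Of the 10 myotube markers 2 were called lower and 0 higher with si mH2A1.1 (4 called by DESeq2 in either direction), and 3 had a positive log2 fold change. Myog was at 624, 628 and 745 CPM in si Ctrl and 442, 484 and 337 CPM with si mH2A1.1, and Mymx at 54.8, 79.1 and 88.7 CPM and then 41.3, 48.7 and 35.8 CPM. Ckm went the other way, at 275, 318 and 431 CPM and then 452, 443 and 493 CPM. So did Des, at 1349, 1143 and 1166 CPM and then 1897, 1620 and 1486 CPM, and edgeR called neither of them. The part of interferon-responding, proliferating or less differentiated cells in the member values was not tested. The 4 macrophage markers summed to 2.86 to 4.05 CPM, 6.10 to 11.4 CPM and 3.44 to 3.63 CPM. Cd68 made up most of that sum, while Ptprc stayed at or below 0.222 CPM, Csf1r at or below 0.417 CPM and Adgre1 had 0 counts in si Ctrl and si mH2A1.1. The 4 endothelial markers summed to 1.12 to 1.75 CPM, 2.03 to 2.99 CPM and 1.02 to 1.90 CPM, and Tek alone of them was called higher with si mH2A1.1, whereas Pecam1 was lower in all si mH2A1.1 samples than in si Ctrl without being called (adjusted p = 0.162), as was Kdr, which was too low to test.

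The 1 further member called higher was Mmp15, a membrane-type MMP that activates proMMP-2. It was at 61.1, 62.9 and 89.5 CPM in si Ctrl, 143, 113 and 111 CPM with si mH2A1.1 and 70.3, 62.8 and 80.8 CPM with si mH2A1.2. The si mH2A1.1 samples did not overlap the others, at 1.72-fold above si Ctrl (log2 fold change 0.78, standard error 0.17, adjusted p = 0.0191). This call was lost without si Ctrl replicate 1 or 2 or si mH2A1.1 replicate 1, with adjusted p up to 0.0799.

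Of the 20 tested ADAMTS and ADAMTS-like genes, 5 were called lower with si mH2A1.1, 25% beside 4.93% of all tested genes. Adamts8 alone was called higher, 5% beside 6.18%, and it passed the filter only through its si mH2A1.1 samples. The largest fall was that of Adamtsl3, an ADAMTS-like matrix protein at chr7:82335694-82614450. It was at 16.5, 34.8 and 35.0 CPM in si Ctrl, 2.77, 5.95 and 7.03 CPM with si mH2A1.1 and 65.7, 72.3 and 75.3 CPM with si mH2A1.2. The 3 groups did not overlap, and with si mH2A1.1 it was 5.47-fold lower than in si Ctrl (log2 fold change -2.45, standard error 0.34, adjusted p = 0.00418).

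Adamts1 and Adamts5, proteoglycan-cleaving enzymes whose main known substrates are versican and aggrecan, lie next to each other on chromosome 16. Adamts1 (chr16:85793827-85803113) was at 131, 163 and 170 CPM in si Ctrl, 89.9, 82.7 and 79.6 CPM with si mH2A1.1 and 163, 188 and 200 CPM with si mH2A1.2. Adamts5 (chr16:85856173-85901828) was at 130, 153 and 126 CPM, then 45.7, 94.0 and 58.2 CPM, then 197, 232 and 169 CPM. In both genes the si mH2A1.1 samples were the 3 lowest of the 9. The log2 fold change against si Ctrl was -0.88 for Adamts1 (standard error 0.12, adjusted p = 0.00415) and -1.05 for Adamts5 (standard error 0.23, adjusted p = 0.0212).

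Adamts10, which binds fibrillin microfibrils, was at 24.2, 31.2 and 24.2 CPM in si Ctrl, 14.4, 14.4 and 13.6 CPM with si mH2A1.1 and 38.7, 38.7 and 34.4 CPM with si mH2A1.2, again with no overlap between the 3 groups. It fell 1.88-fold with si mH2A1.1 (log2 fold change -0.91, standard error 0.12, adjusted p = 0.00352). Adamts12, which cleaves cartilage oligomeric matrix protein, was at 18.9, 29.4 and 40.8 CPM in si Ctrl, 8.25, 12.6 and 12.6 CPM with si mH2A1.1 and 23.6, 35.3 and 47.9 CPM with si mH2A1.2. All si mH2A1.1 samples were below the other 6 (2.66-fold lower than si Ctrl, adjusted p = 0.0220). The calls of Adamts1, Adamts10 and Adamtsl3 were kept in all 9 fits without 1 sample. Those of Adamts5 and Adamts12 were lost without si Ctrl replicate 2 or 3 or si mH2A1.1 replicate 1 or 3, with adjusted p up to 0.0837 and 0.0891.

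Among the MMPs, Mmp2, Mmp11 and Mmp16 fell with si mH2A1.1. Mmp2 (chr8:92827291-92853420) was at 98.6, 158 and 121 CPM in si Ctrl and at 46.0, 90.4 and 68.0 CPM with si mH2A1.1, 1.85-fold lower (log2 fold change -0.88, standard error 0.23, adjusted p = 0.0350). Mmp16, a membrane-type MMP that activates proMMP-2 (chr4:17852893-18119145), was at 4.44, 6.85 and 4.90 CPM in si Ctrl and 2.74, 3.56 and 2.83 CPM with si mH2A1.1 (log2 fold change -0.83, standard error 0.20, adjusted p = 0.0273). Mmp11, stromelysin-3, was at 89.3, 113 and 95.1 CPM and then 45.4, 83.7 and 53.4 CPM (log2 fold change -0.71, standard error 0.19, adjusted p = 0.0436). In all 3 genes the knockdown samples lay below the control samples, with replicate 2 of si mH2A1.1 closest to them. With only the 2 groups compared in the fit none of the 3 was called, with adjusted p of 0.0588 for Mmp2, 0.0506 for Mmp16 and 0.0712 for Mmp11. Mmp11 was called in 1 of the 9 fits without 1 sample, that without si mH2A1.1 replicate 2, with adjusted p up to 0.147. Mmp2 lost its call without si Ctrl replicate 2 or 3, si mH2A1.1 replicate 1 or 3 or si mH2A1.2 replicate 2 (up to 0.13), and Mmp16 without si Ctrl replicate 2 or 3 or si mH2A1.1 replicate 1 or 3 (up to 0.0977).

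With si mH2A1.2 against si Ctrl, 7 members rose, Adamts6, Adamts16, Adamts17, Mmp2, Mmp14, Mmp16 and Mmp19, and 0 were called lower (DESeq2 0, and 2 at an unadjusted p under 0.05). The 7 are 13% of the tested members, beside 1.37% of all tested genes called higher, 0.982% called lower and 2.35% in either direction. The median log2 fold change of the 54 members was 0.24. This count rested on single samples. It was 0 without si Ctrl replicate 1 or 3 or without si mH2A1.2 replicate 1, 1 without si mH2A1.2 replicate 2, and 3 without si mH2A1.2 replicate 3 or si mH2A1.1 replicate 3.

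The largest rises were those of Adamts16 and Adamts17. Adamts16, a fibronectin-cleaving enzyme at chr13:70727802-70841811, was at 4.98, 8.61 and 9.38 CPM in si Ctrl, 1.41, 5.83 and 4.17 CPM with si mH2A1.1 and 76.0, 40.2 and 43.4 CPM with si mH2A1.2. It was 6.94-fold higher with si mH2A1.2 than in si Ctrl (log2 fold change 2.79, standard error 0.44, adjusted p = 0.0166). Adamts17 (chr7:66839735-67153171), which acts in fibrillin matrices, was at 2.57, 7.75 and 3.64 CPM in si Ctrl, 0.692, 2.05 and 0.898 CPM with si mH2A1.1 and 48.5, 33.0 and 15 CPM with si mH2A1.2. It was 6.91-fold higher (log2 fold change 2.79, standard error 0.52, adjusted p = 0.0280). Every si mH2A1.2 sample was above the other 6 in both genes, and replicate 1 was the highest.

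Adamts6, which also acts in fibrillin matrices, was at 45.0, 58.9 and 56.8 CPM in si Ctrl, 30, 50.4 and 53.4 CPM with si mH2A1.1 and 136, 110 and 106 CPM with si mH2A1.2. Its si mH2A1.2 samples were above all others (log2 fold change 1.13, standard error 0.20, adjusted p = 0.0248). Adamts16 lost its call without si Ctrl replicate 1 or 3 or si mH2A1.2 replicate 1, with adjusted p up to 0.0676. Adamts17 lost it without those samples and without si mH2A1.2 replicate 2 (up to 0.109), and Adamts6 without any 1 of the si Ctrl samples or si mH2A1.2 replicate 1 or 2 (up to 0.100).

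Mmp2, lower with si mH2A1.1, rose with si mH2A1.2 to 264, 263 and 270 CPM, 2.11-fold above si Ctrl (log2 fold change 1.08, standard error 0.23, adjusted p = 0.0404). Mmp16 rose to 11.8, 10.2 and 9.67 CPM (log2 fold change 0.97, standard error 0.19, adjusted p = 0.0326). These 2 were the members that edgeR called against si Ctrl in both knockdowns, in opposite directions, and their 3 groups did not overlap. With the replicate block, and also by DESeq2, 5 members were called in both, again in opposite directions, with Adamts10, Adamts17 and Adamtsl3 added. Mmp14, a membrane-type MMP and the main activator of proMMP-2, was at 177, 227 and 192 CPM in si Ctrl, 220, 223 and 201 CPM with si mH2A1.1 and 355, 290 and 289 CPM with si mH2A1.2. The si mH2A1.2 samples stood above all others (log2 fold change 0.65, standard error 0.12, adjusted p = 0.0296). Mmp2, Mmp14 and Mmp16 each lost the call against si Ctrl without si Ctrl replicate 1 or 3, si mH2A1.1 replicate 3 or any 1 of the si mH2A1.2 samples, with adjusted p up to 0.144, 0.120 and 0.123.

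Mmp19, which cleaves basement membrane proteins, was at 9.34, 12.4 and 14.5 CPM in si Ctrl, 11.2, 14.4 and 13.9 CPM with si mH2A1.1 and 20.4, 19.1 and 23.1 CPM with si mH2A1.2. The si mH2A1.2 samples did not overlap the rest, at 1.73-fold above si Ctrl (log2 fold change 0.79, standard error 0.17, adjusted p = 0.0438). It was called in 1 of 9 fits without 1 sample, that without si mH2A1.1 replicate 1 (adjusted p up to 0.131). With only the 2 groups compared in the fit, its adjusted p was 0.0589 and that of Mmp14 was 0.056. Tmem198b on the opposite strand shares 22.3% of the Mmp19 exon length, and whether the counting used strand is not stated, so reads there cannot be told apart. Tmem198b was at 30.5 CPM in si Ctrl and 34.4 CPM with si mH2A1.2 and was not called.

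Same-numbered si Ctrl and si mH2A1.2 samples deviated together, so the fit with the replicate number as a block is given beside the main one here. With that replicate block 9 members were called higher, since Adamtsl3 (adjusted p = 0.0106 with the block and 0.0676 without) and Adamts10 (0.0270 and 0.0654) were added. All 3 si mH2A1.2 samples of both genes were above all si Ctrl samples. DESeq2 called these 2 and Adamtsl1, 10 members in all.

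Markers moved with si mH2A1.2 too. Of the 10 myotube markers, 2 were called lower and 0 higher. Des was at 1349, 1143 and 1166 CPM in si Ctrl and 879, 774 and 728 CPM with si mH2A1.2 (adjusted p = 0.0466), and Tnnt3 at 949, 973 and 1290.15 CPM and then 479, 504 and 672 CPM (adjusted p = 0.0280). The summed level of the list was 18666 to 27725 CPM and then 16070 to 20385 CPM. Of the 6 markers of undifferentiated reserve myoblasts, Myf5 was called lower, at 53.4, 45.0 and 40.6 CPM and then 29.1, 30.1 and 18.4 CPM (adjusted p = 0.0422), while the sum of that list overlapped, at 208 to 270 CPM and 210 to 344 CPM. The list did not move in 1 direction, since 3 of the 6 had a positive log2 fold change, with a median of 0.087 over the list. At an unadjusted p under 0.05 there were 4. None of the proliferation, interferon, macrophage or endothelial markers was called by edgeR or DESeq2, and 0 passed an unadjusted p under 0.05. The part of these cell types in the member values was not tested.

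**Figure D3:**
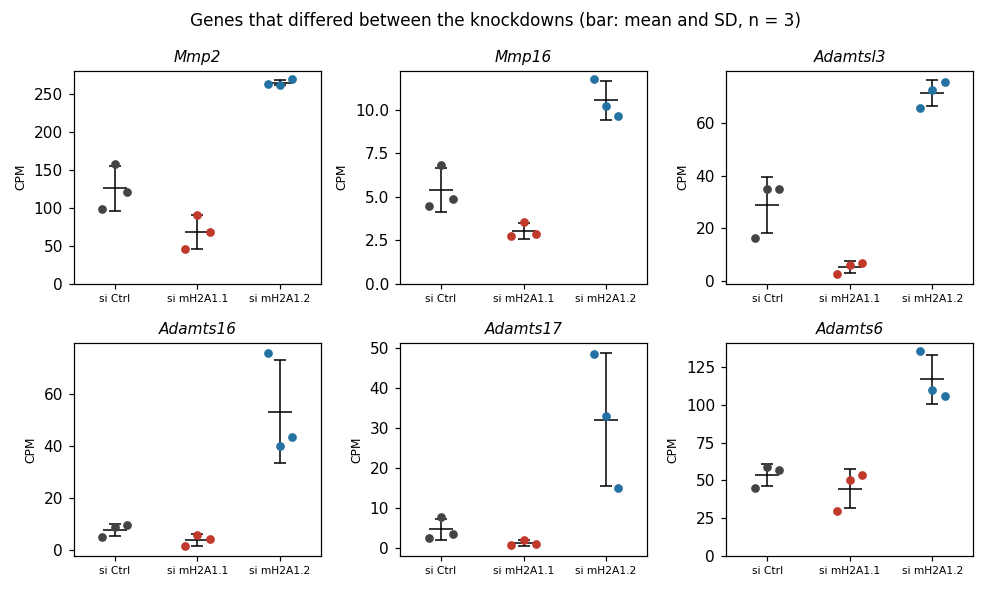
CPM of Mmp2, Mmp16, Adamtsl3, Adamts16, Adamts17 and Adamts6 in each sample (points) with the mean and SD of each group of 3 (bars), on linear axes. The si mH2A1.2 points are the highest in every panel, and for Mmp2, Mmp16 and Adamtsl3 the si mH2A1.1 points lie below all si Ctrl points.

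The direct comparison of the knockdowns uses no control sample as its reference. With si mH2A1.1 against si mH2A1.2, 21 members were lower, 38.9% of those tested beside 10.5% of all tested genes. A further 6 were higher, which at 11.1% is near the 12% of all tested genes called higher. The 6 were Mmp3, Mmp10, Mmp12, Mmp13, Mmp15 and Adamts8. Of these, Mmp3, Mmp10, Mmp13 and Adamts8 passed the filter only through their si mH2A1.1 samples. A difference in them was built into their being tested, and the 11.1% includes them. Of the 15 tested ADAMTS genes 10 were lower, as were 3 of 5 ADAMTS-like genes, 5 of 14 MMPs, 2 of 4 TIMPs and 1 of 16 ADAMs. The edgeR calls in this comparison that no comparison with si Ctrl had given were those of Adam12, Adamts2, Adamts9, Adamts14, Adamtsl1, Adamtsl2, Timp1 and Timp3.

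Among the 21 lower members the largest differences were in Adamts17, 26.5-fold lower with si mH2A1.1 than with si mH2A1.2 (log2 fold change -4.73, standard error 0.59, adjusted p = 0.000730), Adamts16, 14.0-fold lower (adjusted p = 0.000676), and Adamtsl3, 13.5-fold lower (adjusted p = 0.000263). Mmp2 was 3.90-fold lower (log2 fold change -1.96, standard error 0.23, adjusted p = 0.000575) and Mmp16 3.47-fold lower (log2 fold change -1.79, standard error 0.20, adjusted p = 0.000428). The calls of these 5 genes were kept in all 9 fits without 1 sample. The count of lower members was between 14 and 22 in those fits. Direct calls were lost for Mmp12 without si mH2A1.1 replicate 1 or si mH2A1.2 replicate 2 or 3 (adjusted p up to 0.0696), for Mmp13 without si mH2A1.1 replicate 3 or si mH2A1.2 replicate 2 (up to 0.0678), for Mmp14 without si mH2A1.1 replicate 3 (0.0550) and for Mmp19 without si mH2A1.1 replicate 1 or si mH2A1.2 replicate 3 (up to 0.0693).

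The procollagen N-proteinases Adamts2 and Adamts14, which trim procollagens before they form fibrils, were called by edgeR in the direct comparison alone, and DESeq2 also called Adamts2 lower with si mH2A1.1 than in si Ctrl (adjusted p = 0.0239). Adamts2 was at 92.3, 73.7 and 86.6 CPM in si Ctrl, 31.2, 72.1 and 45.8 CPM with si mH2A1.1 and 126, 106 and 93.5 CPM with si mH2A1.2. The 3 groups were in a row without overlap, and the knockdowns differed by -1.12 on the log2 scale (standard error 0.25, adjusted p = 0.0114). Adamts14 was at 158, 133 and 175 CPM, 101, 141 and 127 CPM and 191, 162 and 161 CPM, and here the si Ctrl range overlapped both knockdowns (direct log2 fold change -0.48, standard error 0.15, adjusted p = 0.0399).

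Adamtsl1, Adamtsl2 and Adamts9 were also called in the direct comparison. Adamtsl1, an ADAMTS-like protein, was at 3.41 to 4.79 CPM with si mH2A1.1 and 7.20 to 11 CPM with si mH2A1.2 (adjusted p = 0.00649). Adamtsl2, another one, which binds fibrillin, was at 8.0 to 14.5 CPM and 19.5 to 57.3 CPM (adjusted p = 0.0351). Adamts9, a proteoglycan-cleaving enzyme, was at 0.642 to 0.875 CPM and 1.18 to 1.59 CPM (adjusted p = 0.0325, and 0.0579 with no filter on low counts). The ranges of each of these genes did not overlap between the knockdowns. The call of Adamts14 was kept in 3 of 9 fits without 1 sample, that of Adamts9 in 4 and that of Adamtsl2 in 5, with adjusted p up to 0.129, 0.114 and 0.115. Without si mH2A1.1 replicate 1 or si mH2A1.1 replicate 3 none of the 3 was called. Adamts14 also lost its call without si Ctrl replicate 1 or any 1 of the si mH2A1.2 samples, Adamts9 without si mH2A1.1 replicate 2 or si mH2A1.2 replicate 2 or 3, and Adamtsl2 without si mH2A1.1 replicate 2 or si mH2A1.2 replicate 1.

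**Figure D4:**
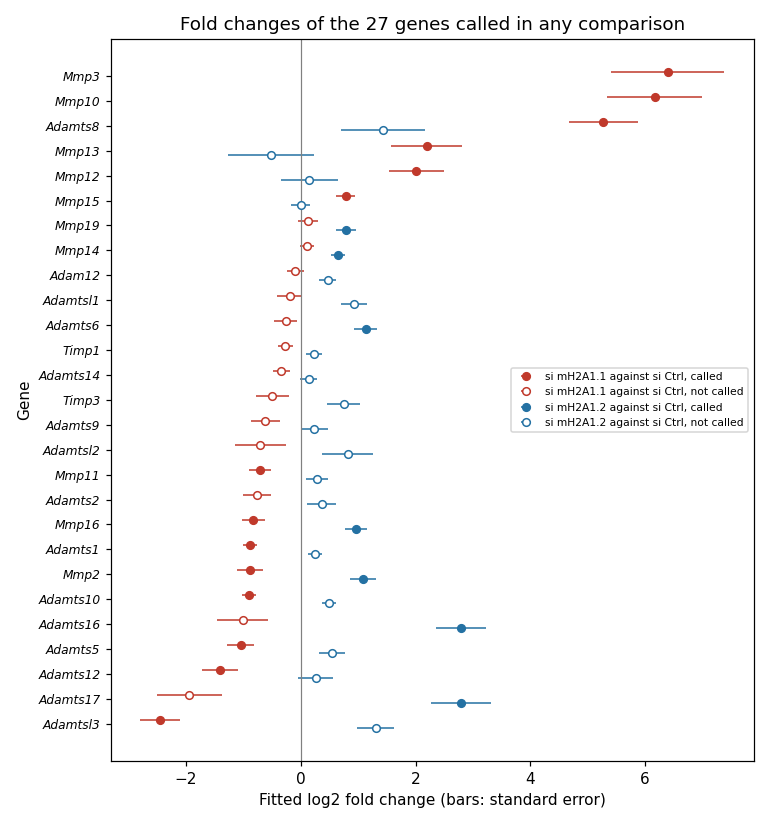
Fitted log2 fold change against si Ctrl with its standard error for the 27 genes called in any comparison, red for si mH2A1.1 and blue for si mH2A1.2, filled where called and open where not. Values of Mmp3, Mmp10, Adamts8 and Mmp13 rest on few control counts and are no bounds, and Mmp3 and Mmp10 have no blue point because both groups were at or under 3 counts per sample on average. Below Mmp13 and Mmp12 the red points run from 0.78 for Mmp15 to -2.45 for Adamtsl3, and the filled blue points lie between 0.65 and 2.79.

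None of the 4 TIMPs was called against si Ctrl in either knockdown by edgeR or DESeq2, and at an unadjusted p under 0.05 there were 0 after si mH2A1.1 and 1 after si mH2A1.2. By edgeR, 11.1% and 2.35% of all tested genes were called in these comparisons. For a family of 4 genes the 0 is therefore near the background. Timp2, which inhibits MMPs and also takes part in proMMP-2 activation, was at 648, 654 and 659 CPM in si Ctrl, 598, 817 and 612 CPM with si mH2A1.1 and 754, 722 and 712 CPM with si mH2A1.2. For Timp2 the fitted log2 difference came to 0.05 ± 0.13 (standard error) against si Ctrl after si mH2A1.1 and 0.16 ± 0.13 after si mH2A1.2. The si mH2A1.1 range held the whole si Ctrl range, while the si mH2A1.2 samples lay above it.

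Timp1 and Timp3 differed between the knockdowns. Timp1, on the X chromosome, was at 102, 112 and 81.1 CPM in si Ctrl, 77.7, 92.7 and 75.0 CPM with si mH2A1.1 and 126, 117 and 105 CPM with si mH2A1.2 (direct log2 fold change -0.50, standard error 0.13, adjusted p = 0.0247). Timp3, an inhibitor held in the matrix that also blocks ADAM17 and ADAMTS enzymes, was at 331, 288 and 216 CPM, 136, 267 and 191 CPM and 661, 381 and 361 CPM (direct log2 fold change -1.24, standard error 0.29, adjusted p = 0.0138). In both genes the knockdown ranges did not overlap each other, while the si mH2A1.1 range overlapped si Ctrl. Timp1 lost the call without si mH2A1.1 replicate 1 or 3 or si mH2A1.2 replicate 1 or 2 (adjusted p up to 0.0905), and Timp3 without si mH2A1.1 replicate 1 or 3 (up to 0.0546). Syn3 on the opposite strand shares 21.3% of the Timp3 exon length and was at or below 0.455 CPM on average in each group. Timp4 was near the counting limit, at 30 counts over si Ctrl, 29 over si mH2A1.1 and 22 over si mH2A1.2.

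Of the 16 tested ADAMs, 0 were called against si Ctrl in either knockdown by edgeR, beside 11.1% and 2.35% of all tested genes, so for a family of this size the 0 is near the background. DESeq2 called 1 after si mH2A1.1 and 0 after si mH2A1.2, and at an unadjusted p under 0.05 there were 3 and 4. The median log2 fold change was -0.0036 after si mH2A1.1 and 0.05 after si mH2A1.2, beside -0.65 and 0.49 for the 15 ADAMTS genes, and the difference between the families was not tested.

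Adam10, the main shedding enzyme of Notch receptors, was at 156, 135 and 105 CPM in si Ctrl, 139, 210 and 151 CPM with si mH2A1.1 and 152, 145 and 110 CPM with si mH2A1.2. Adam17, which releases tumour necrosis factor, was at 95.3, 81.2 and 85.2 CPM, 85.3, 98.1 and 89.8 CPM and 102, 84.7 and 87.4 CPM. The 3 groups overlapped in both genes. Adam9 was at 239 to 263 CPM, 194 to 266 CPM and 233 to 282 CPM, also overlapping. The standard errors of their log2 fold changes were 0.19 for Adam10, 0.10 for Adam17 and 0.13 for Adam9.

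Adam19 was at 337, 356 and 401 CPM in si Ctrl, 209, 347 and 248 CPM with si mH2A1.1 and 393, 323 and 333 CPM with si mH2A1.2 (log2 fold change of si mH2A1.1 against si Ctrl -0.44, standard error 0.17, adjusted p = 0.120). One si mH2A1.1 sample, replicate 2, lay inside the control range. Adam12, also known as meltrin alpha and first described in fusing myoblasts, was at 31.7, 35.2 and 36.4 CPM, 37.9, 33.1 and 26.1 CPM and 51.9, 40.3 and 50.8 CPM. It was the only ADAM called in the direct comparison (log2 fold change -0.56, standard error 0.15, adjusted p = 0.0226). That call was lost without si mH2A1.1 replicate 3 or si mH2A1.2 replicate 1 or 3, with adjusted p up to 0.0718.

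Mmp9 and Adamts4 were not called in any comparison either. Mmp9, the other gelatinase, was at 0.0535, 0.240 and 0.541 CPM in si Ctrl, 0.766, 0.617 and 0.783 CPM with si mH2A1.1 and 0, 0.209 and 0.295 CPM with si mH2A1.2. Its si mH2A1.1 samples were the 3 highest (log2 fold change 1.36, standard error 0.72, adjusted p = 0.235). Adamts4, an aggrecan-cleaving enzyme, was at 63.7, 92.3 and 74.5 CPM, 135, 98.9 and 87.2 CPM and 141, 106 and 96.2 CPM. Against si Ctrl the log2 fold change of Adamts4 was 0.48 after si mH2A1.1 and 0.57 after si mH2A1.2, each with a standard error of 0.20.

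Partners of these proteases, a list of 39 inhibitors, activators, chaperones, receptors, substrates and transcription factors, were looked at in the same fit, and 32 were tested. With si mH2A1.1, 3 fell and 0 rose, 9.38% of those tested beside 11.1% of all genes called in either direction. With si mH2A1.2, 2 rose and 0 fell, 6.25% beside 2.35%. Versican (Vcan), the large proteoglycan that ADAMTS enzymes cleave, was at 530, 583 and 618 CPM in si Ctrl, 264, 410 and 316 CPM with si mH2A1.1 and 1589, 1167 and 1214 CPM with si mH2A1.2. Its groups did not overlap, with a log2 fold change of -0.81 after si mH2A1.1 (adjusted p = 0.0208) and of 1.2 after si mH2A1.2 (adjusted p = 0.0135), both with a standard error of 0.18.

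Reck, a membrane-anchored inhibitor of MMPs, was at 7.87, 8.69 and 6.76 CPM in si Ctrl, 3.14, 5.83 and 4.65 CPM with si mH2A1.1 and 8.78, 10.0 and 7.95 CPM with si mH2A1.2. It fell with si mH2A1.1 (log2 fold change -0.77, standard error 0.22, adjusted p = 0.0464). Rhbdf1, or iRhom1, which carries ADAM17 to the cell surface, was at 83.2, 97.0 and 93.9 CPM, 72.5, 71.0 and 69.3 CPM and 114, 109 and 101 CPM (log2 fold change -0.37 after si mH2A1.1, adjusted p = 0.0305, standard error 0.09). In both, the si mH2A1.1 samples were below all others. Ets2, an ETS transcription factor, was at 49.1, 54.9 and 48.9 CPM, 46.8, 59.5 and 57.8 CPM and 94.1, 76.5 and 72.2 CPM, and rose with si mH2A1.2 (log2 fold change 0.67, standard error 0.13, adjusted p = 0.0294).

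The 7 Fos and Jun family genes, whose dimers bind AP-1 sites, were not called with si mH2A1.1 by edgeR or DESeq2, and 0 passed an unadjusted p under 0.05. Jun was at 124 to 155 CPM in si Ctrl and 145 to 155 CPM with si mH2A1.1, and Fosl1 at 12.3 to 19.7 CPM and 12.1 to 25.1 CPM, with overlapping ranges. In the direct comparison 13 partners were called, 10 lower and 3 higher with si mH2A1.1. These are 31.2% and 9.38% of those tested, beside 10.5% of all tested genes called lower and 12% called higher. The lower ones included Junb (log2 fold change -0.89), the clearance receptor Lrp1 (-1.13), the procollagen C-proteinase Bmp1 (-0.65), its enhancer Pcolce (-0.62) and the convertase Pcsk6 (-1.79), as well as Fosb (-1.10). The higher ones were Tspan15 (0.86) and Tspan33 (0.84), which guide ADAM10, and Frmd8 (0.39), which stabilizes iRhoms.

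The partner counts rested on single samples. With si mH2A1.1, 0 were called without si Ctrl replicate 2 or 3 or si mH2A1.1 replicate 1 or 3, 1 without si mH2A1.2 replicate 2, and 6 without si mH2A1.1 replicate 2. With si mH2A1.2 it was 0 without si Ctrl replicate 1 and 1 without si Ctrl replicate 2 or 3, si mH2A1.1 replicate 3 or si mH2A1.2 replicate 1 or 2. With the replicate block, 5 partners were called with si mH2A1.2 instead of 2, since Lrp1 (adjusted p = 0.0405), Bmp1 (0.0470) and Pcolce (0.0328) were added.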

How the data were processed

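The members and gene lists were chosen with earlier results of these data known. The authors estimated reads per gene with Salmon on GRCm38 from polyadenylated mRNA (single reads of 50 bases), and the deposited table holds these expected counts, estimated counts as whole numbers without normalization. A second deposited table, a normalized signal (the counts divided by 1 factor per sample), was not used here. The annotation release and strandedness are not given in the sources used here. Gene names, positions and exon lengths came from GENCODE M21. In R 4.3.3, edgeR 4.0.16 fitted all 9 samples in 1 quasi-likelihood model (legacy form) with TMM normalization, filterByExpr and Benjamini-Hochberg adjustment over 19545 genes. CPM are counts over the TMM-scaled library size (edgeR's cpm function). Ratios of summed counts carry exact binomial 95% intervals. Alternatives were DESeq2 1.42.0, its size factors, other filters and thresholds, a replicate block, fits of 2 groups and leaving out each sample. Tests were checked on simulated data. Genes were named if called in any contrast, if a TIMP, if in a list of 14 well-studied members, if among the 10 highest in si Ctrl, or as partners called in any contrast. The labels do not say what a replicate number marks. Deviations from the group mean correlated between same-numbered samples with r from 0.196 to 0.331 for si Ctrl and si mH2A1.2, 0.0841 to 0.0976 for si Ctrl and si mH2A1.1, and 0.0917 to 0.116 between the knockdowns, over tested genes. For differently numbered samples r was -0.267 to 0.0358, -0.0739 to -0.0213 and -0.0961 to -0.0122 in the same order. In every combination the same-numbered pairs were above the differently numbered ones, so the samples may be paired across all 3 groups. The sample descriptions also carry consecutive numbers within a replicate number. Only the first combination passed 0.1 in every same-numbered pair, and its fit with the block is given beside the main one. The main calls and the fits that left out 1 sample used no block. Any 2 samples differed in the counts of at least 97.9% of tested genes. Figures and motif counts used Python 3.11.15, pandas 2.3.3 and matplotlib 3.10.9.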

Additional observations from a re-analysis of the deposited data

How the results depend on the processing

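With si mH2A1.1 against si Ctrl, the 6 higher members became 3 with at least 10 counts in every sample, 2 without the genes that passed the filter only through si mH2A1.1, 3 at the stricter threshold (adjusted p under 0.01 and a log2 change of 0.8 or more in size), and 11 at an unadjusted p under 0.05, and 3 to 9 with 1 sample left out. The 8 lower members became 3 at the stricter threshold and 15 at the unadjusted one, and 3 to 12 with 1 sample left out. With si mH2A1.2, the 7 higher members became 0 at the stricter threshold and 15 at the unadjusted one, and 0 to 8 with 1 sample left out, while the 0 lower members became 2 at the unadjusted p. In the direct comparison, the 6 higher members became 10 with no filter on low counts, 2 with at least 10 counts in every sample and 3 at the stricter threshold. The 21 lower members became 12 at the stricter threshold. The 3 partner genes called with si mH2A1.1 became 6 by DESeq2, 8 with the replicate block, 0 at the stricter threshold, 1 with an added minimum log2 change of 0.8 in size and 9 at the unadjusted p, and 0 to 6 with 1 sample left out. The 2 called with si mH2A1.2 became 5 by DESeq2, 4 with no filter, 5 with the replicate block, 0 at the stricter threshold, 1 with an added minimum log2 change of 0.8 in size and 9 at the unadjusted p, and 0 to 3 with 1 sample left out. The threshold and sample counts follow from their own construction, and the cause of the other changes was not tested.

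With the replicate block, 9 members were higher and 10 lower with si mH2A1.1, 9 higher with si mH2A1.2, and 8 higher and 23 lower in the direct comparison, and no member call of the main fit was lost. Same-numbered pairs with si mH2A1.1 deviated together too, though more weakly than those of si Ctrl and si mH2A1.2. Their r was 0.0841 to 0.0976 with si Ctrl, beside -0.0739 to -0.0213 for differently numbered pairs. With si mH2A1.2 it was 0.0917 to 0.116, beside -0.0961 to -0.0122.

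No called member changed direction in any alternative. Directions turned only in values that were not called. The log2 fold change of Adam17 in the direct comparison was 0.0021 by DESeq2 and 0.0030 with the replicate block, and that of Mmp15 with si mH2A1.2 was -0.00069 by DESeq2. With 1 sample left out, the si mH2A1.1 values ran from -0.21 to 0.043 for Adam12, -0.21 to 0.019 for Adam9, -0.033 to 0.27 for Mmp19, -0.11 to 0.13 for Timp2 and -0.55 to 0.067 for Timp4. The si mH2A1.2 values ran from -0.11 to 0.18 for Adam10, -0.023 to 0.13 for Adam17, -0.16 to 0.0056 for Adam19, -0.015 to 0.13 for Adam9, -0.011 to 0.55 for Adamts12, -1.48 to 0.14 for Mmp13, -0.097 to 0.19 for Mmp15 and -1.37 to 0.19 for Mmp9. The direct values ran from -0.062 to 0.080 for Adam17 and -0.30 to 0.082 for Adamts4. Depth limits Mmp3, Mmp10 and Adamts8 in si Ctrl, where each sample had 0 to 4 counts.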

Other observations

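With si mH2A1.1 against si Ctrl, 6 members had an adjusted p in edgeR over 0.05 and under 0.1, a range set after their values were seen. In each of the 6 the si Ctrl and si mH2A1.1 samples did not overlap, and DESeq2 called all 6. How often this held among all tested genes in the same range was not counted, so it is not read as a trait of these members. Those not described above were Adamtsl4, Adam1a and Adamtsl5. Adamtsl4, which binds fibrillin, was at 41.2, 57.3 and 38.5 CPM in si Ctrl and 20.1, 36.2 and 22.8 CPM with si mH2A1.1 (adjusted p = 0.0507 by edgeR and 0.0113 by DESeq2). Adam1a, a sperm-associated ADAM, was at 2.44, 2.11 and 1.91 CPM and then 7.06, 4.10 and 8.09 CPM (0.0516 and 0.00389). Same-strand Gm42878 shares 63.7% of its exon length, so the reads of the 2 genes may be split between them. Adamtsl5 was at 90.1, 71.7 and 67.3 CPM and then 117, 106 and 105 CPM (0.0854 and 0.0469). The others were Adamts17 (lower, adjusted p = 0.0525 by edgeR and 0.0294 by DESeq2), Adamts15 (higher, 0.0582 and 0.0405) and Adamts2 (lower, 0.0736 and 0.0239).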
